A study of Mus musculus with 171 samples.

Results

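Primitive endoderm (PrE) cells of Stat3-null mouse embryos were compared with the inner cell mass (ICM) cells of Stat3-null embryos that came before them. The members were the deposited cells whose titles start with E3.75_MUT and end in PrE, 14 cells of 4 embryos, and those whose titles start with E3.5_MUT, 55 cells of 5 embryos, or 69 of the 171 cells in the series. Each deposited sample was the RNA of 1 cell, sequenced on its own, and counts were summed per embryo so that the embryo is the replicate. The 5 ICM embryos, numbered 2, 10, 18, 23 and 24, had 5, 19, 17, 4 and 10 cells, and the 4 PrE embryos, numbered 1, 2, 4 and 5, had 2, 2, 5 and 5. All of these cells carry the genotype label Stat3 -/-, with no treatment. Neither the allele nor the strain is given in the sources used here, and an ICM embryo and a PrE embryo with the same number were taken as different embryos, since their titles give different stages. Titles put the PrE cells at E3.75 (embryonic day), whereas their source label gives E3.5. How a cell came to be labelled PrE is not given, and if expression was used, PrE markers are not independent evidence of the label. Embryos of the same 4 numbers also gave 9 cells labelled epiblast (EPI), and 5 wild-type ICM embryos (64 cells) and 3 wild-type PrE embryos (10 cells) allowed the same step to be measured with Stat3 present.

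The ICM is the inner group of cells of the blastocyst. Its cells begin with both NANOG, the factor of the epiblast, and GATA6, the factor of the PrE, and each cell then keeps one and loses the other. Cells that will be epiblast secrete FGF4, which acts through FGF receptors and ERK to drive their neighbours to PrE. PrE cells switch on GATA4, SOX17 and SOX7, sort to the surface of the ICM, lay down a basement membrane of laminin and type IV collagen, and go on to form the absorptive and secretory endoderm of the yolk sacs. STAT3 is the transcription factor that LIF activates, and it helps to keep cells in the naive pluripotent state.

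Stat3 itself was low at both stages. Levels are given throughout as CPM, counts scaled to library size by TMM, in the order of embryos 2, 10, 18, 23 and 24 for ICM and 1, 2, 4 and 5 for PrE. Stat3 was at 10.9, 12.3, 6.96, 0.130 and 1.05 CPM in ICM and 9.82, 21.4, 9.90 and 9.82 CPM in PrE. The highest values, in ICM embryo 10 and PrE embryo 2, lay below the lowest wild-type embryo of the same lineage, since wild-type ICM embryos held 43.9 to 104 CPM and wild-type PrE embryos 24.3 to 136 CPM. Whether the remaining reads fall outside a deleted part of the gene cannot be read from counts per gene. Between Stat3-null ICM and PrE the log2 difference was 0.99 (SE 1.21; edgeR adjusted p = 0.867).

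Several technical features differed together with the lineage. The median total count per cell ran from 2000230 to 4229662 over ICM embryos and from 10014176 to 11812811 over PrE embryos, and the embryo sums held 8117787 to 88167705 and 22036350 to 58367613 counts. Median depth, median genes detected (7901.5 to 10029 and 10865 to 11366) and the share of counts in the top 50 genes (30.0% to 41.1% and 19.1% to 29.6%) did not overlap between ICM and PrE embryos (exact two-sided permutation test over embryos, p = 0.0159 for each, 0.0212 after adjustment over the 4 values tested). The mitochondrial share overlapped, at 4.27% to 12.3% and 5.53% to 11.04% (exact permutation p = 0.54, adjusted 0.54). Counts of Y-linked genes and Xist put 4 of 5 ICM embryos as female and 4 of 4 PrE embryos as male. An embryo was put as male where its Y-linked counts exceeded its Xist counts. The signal of ICM embryo 10, put as female, was mixed, with 1088 Y-linked and 35529 Xist counts in a sum of 88167705. ICM embryos 2, 18 and 24 held 7, 65 and 17 Y-linked counts. The male ICM embryo, 23, held 409 Y-linked and 17 Xist counts in a sum of 8117787. The letter in the title, whose meaning is not given, was A or B for PrE cells and D to H for ICM cells, so lineage, stage and letter cannot be told apart.

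The labels were checked against markers of each lineage. The summed level of 17 PrE markers was 6535 to 10093 CPM in the PrE embryos and 1580, 5540, 2130, 534 and 2420 CPM in the ICM embryos. ICM embryo 10 stood nearest to the PrE group and ICM embryo 23 farthest from it. The summed level of 11 ICM and EPI markers was 1880, 1400, 2010, 2120 and 1270 CPM in ICM. In PrE it was 1170, 653, 782 and 809 CPM, so that PrE embryo 1 lay close below ICM embryo 24. Of 12 trophectoderm markers, 8 had counts in PrE and 12 in ICM, with summed levels of 216 to 1130 and 163 to 556 CPM, of which the keratin gene Krt8, which is not limited to that lineage, held 99.1 to 643 and 128 to 361 CPM. The part of the other lineages in the results was not tested. Of the trophectoderm markers Cdx2, Krt7, Elf5 and Tfap2a were at 0 in PrE. Eomes, Krt8, Krt18 and Plac1 had log2 differences above 0 (0.57, 0.65, 1.20 and 4.96). Gata3 and Krt19 lay below 0 (-8.14 and -8.28), and none of these was called. Markers of cumulus cells reached at most 9.05 CPM and those of blood at most 3.19 CPM in any of these embryos.

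Between Stat3-null ICM and PrE, 61 of 12040 tested genes (0.507%) passed an adjusted p of 0.05 in edgeR's quasi-likelihood test, 30 higher in PrE (0.249%) and 31 lower (0.257%). The genes that rose coded for an endoderm regulator (Foxq1), the endocytic machinery (Dab2, Amn), secreted and matrix proteins (Gas6, Htra1, Dkk1, Sparc) and chaperones of the endoplasmic reticulum (ER; Hspa5, Hsp90b1, Manf). Those that fell included the pluripotency genes Nanog and Zfp42, the ligand gene Bmp4 and a set of genes close to 0 in PrE, such as Spic, Oas1e and Slc24a5. At an unadjusted p under 0.05 there were 1139 genes (9.46%), 500 higher (4.15%) and 639 lower (5.31%), and counts of list members at that threshold are to be read against these shares. Called list members are to be read against the 0.249% higher and 0.257% lower, and members above 0 against 47.8% of all tested genes. Called genes that rose did so by at least 1.96 on the log2 scale, and the smallest called fall had a log2 difference of -2.36. The ranges of the 2 groups did not overlap for any of the 61. Over all tested genes the ranges did not overlap for 443 (3.68%) with PrE higher and 378 (3.14%) with PrE lower.

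**Figure D1:**
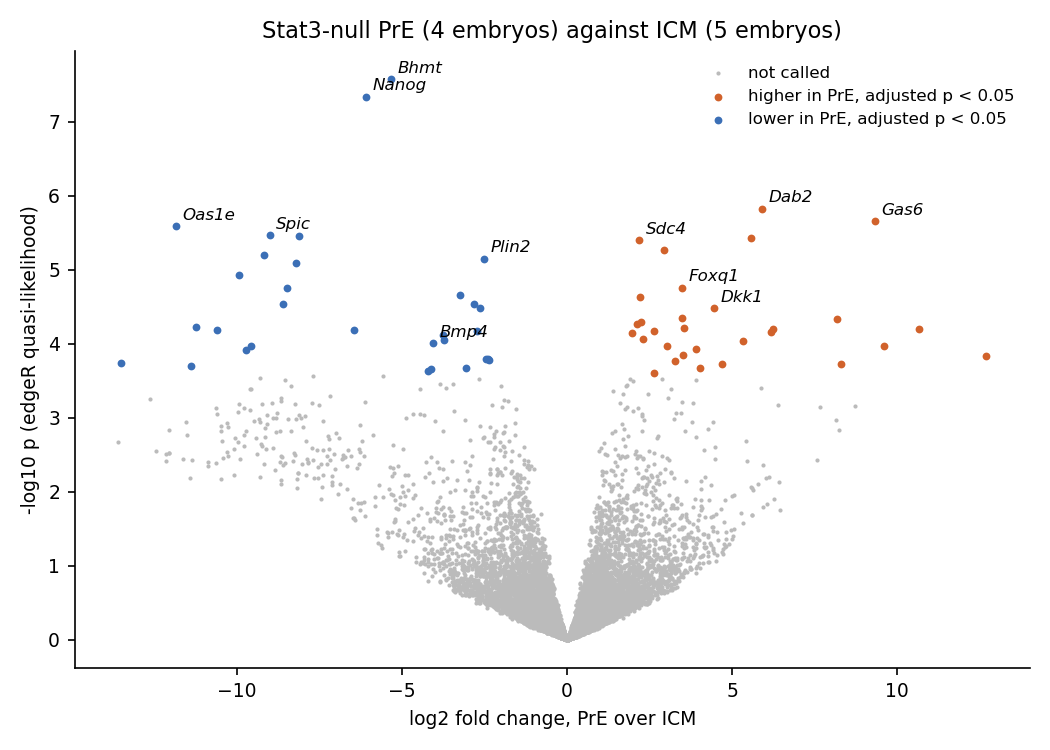
Each point is 1 of 12040 genes, with the log2 fold change of PrE over ICM on the x axis and -log10 of the edgeR p-value on the y axis, for 4 PrE and 5 ICM embryo sums of Stat3-null embryos. The 30 genes called higher (orange) and the 31 called lower (blue) sit above the others, with Bhmt and Nanog at the top.

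The number of calls moved with the embryos used. Leaving out any PrE embryo left 14 to 18 called genes, and leaving out ICM embryo 18 or 24 left 31 or 37, whereas leaving out ICM embryo 10 gave 169. All 61 genes kept their sign in each of these fits in which they were tested. With embryo sex as a term 29 genes were called, 18 of them among the 61. With PrE embryos 4 and 5 (letter A) alone 8 genes were called, and with embryos 1 and 2 (letter B) alone none was, with 1308 genes at an unadjusted p under 0.05. When every cell was thinned to 500000 counts, 136 genes were called and 58 of the 60 that could be tested were among them. Thinning evens the depth per cell, while the embryo sums still differed with the number of cells in them. DESeq2 called 194 genes higher and 363 lower of the 12040 tested, and its counts of list members are to be read against these.

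The regulators of PrE fate did not move alike. Of 12 PrE factors tested, 2 rose, 11 lay above 0 and the median log2 difference was 1.85, beside -0.06 over all tested genes. Foxq1, a forkhead factor, was at 9.15, 9.32, 5.46, 8.06 and 10.7 CPM in ICM and 90.0, 154, 60.5 and 80.5 CPM in PrE. Its ICM values lay close together and below all PrE values, and the log2 difference was 3.49 (SE 0.52; adjusted p = 0.0132).

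The early factors were already present in the ICM. Gata6 was at 39.5, 108, 47.9, 36.9 and 126 CPM in ICM and 90.9, 39.5, 107 and 84.0 CPM in PrE. The ranges overlapped fully, with a log2 difference of 0.16 (adjusted p = 0.957). Pdgfra, a receptor used as an early PrE marker, was at 180.1, 793, 184, 7.93 and 179.8 CPM in ICM and 303, 301, 374 and 303 CPM in PrE. Again the groups overlapped, with ICM embryo 10 above every PrE embryo and ICM embryo 23 far below (0.22; adjusted p = 0.962). The later factor Gata4 was at 3.78, 369, 40.7, 1.95 and 48.2 CPM in ICM and 255, 336, 305 and 401 CPM in PrE, so that ICM embryo 10 lay within the PrE range and the other 4 ICM embryos below it (adjusted p = 0.701).

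Sox17 and Sox7, SOX factors of endoderm that follow GATA6, were higher in every PrE embryo than in any ICM embryo but did not pass the test. Sox17 was at 4.22, 165, 78.3, 20.2 and 117 CPM in ICM and 236, 630.4, 276 and 491 CPM in PrE (log2 2.39, SE 0.79; adjusted p = 0.263). Sox7 was at 5.81, 2.19, 15.2, 0.520 and 40.0 CPM in ICM and 123, 90.3, 312 and 229 CPM in PrE (log2 3.89, SE 0.98; adjusted p = 0.117). The ICM values of both genes spread over more than an order of magnitude between embryos. Foxa2, a forkhead factor of mature endoderm, was near 0 in 4 ICM embryos, and the sum of embryo 24 lay within the PrE range. Its levels were 0.264, 0.0299, 0.203, 0 and 101 CPM in ICM and 78.3, 49.9, 104 and 69.7 CPM in PrE (adjusted p = 0.818). After cells were thinned to equal depth, Foxa2 was detected in 2 of 50 ICM cells and 14 of 14 PrE cells. The sum of embryo 24 is thus not a level shared by most of its cells. These 6 genes are markers of the PrE label and were named for that reason, not by the rule for largest changes.

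**Figure D2:**
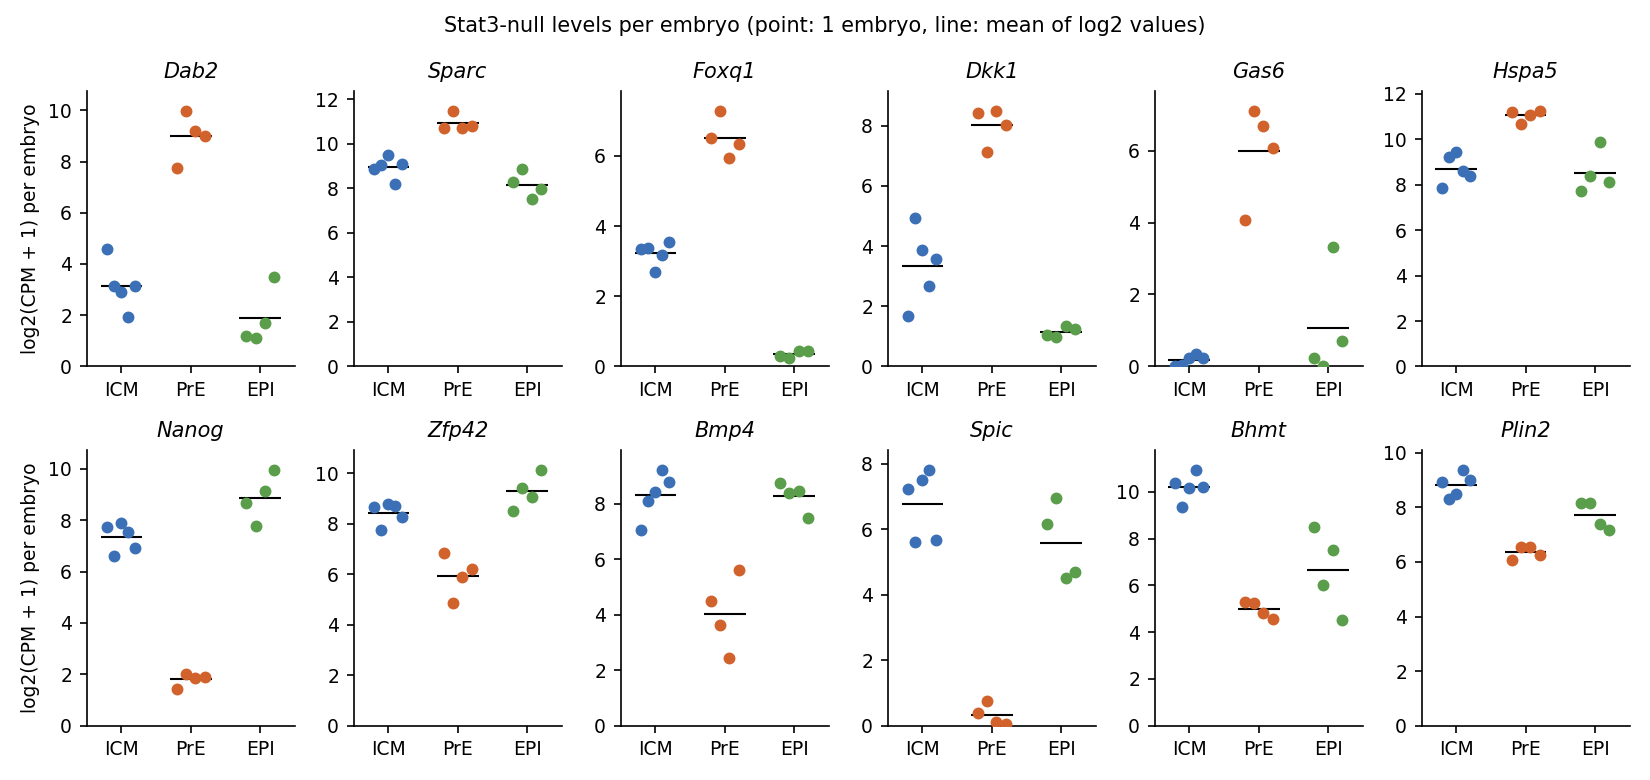
Level per embryo on a log2(CPM + 1) scale for 12 named genes in Stat3-null ICM (5 embryos), PrE (4) and EPI (4), where each point is 1 embryo and the line is the mean of the log2 values. In the upper row all PrE points lie above all ICM points, and in the lower row all lie below.

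Genes of the basement membrane and of collagen processing gave 2 rises among 30 tested, with 24 above 0 and a median log2 difference of 1.66. Of all tested genes 0.249% were called higher and 47.8% lay above 0. Sparc, a collagen-binding matrix protein abundant in parietal endoderm, was at 463, 522, 727, 293 and 547 CPM in ICM and 1672, 2849, 1680.2 and 1794 CPM in PrE. PrE embryo 2 was the highest, and the lowest PrE embryo exceeded the highest ICM embryo, with a log2 difference of 1.96 (SE 0.33; adjusted p = 0.0237). P4ha1, the catalytic subunit of a prolyl 4-hydroxylase that modifies collagen chains, was at 62.5, 226, 174, 148 and 241 CPM in ICM and 716, 912, 648 and 1085 CPM in PrE. No PrE embryo fell within the ICM range (2.30, SE 0.40; adjusted p = 0.0275).

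The structural chains themselves were not called. The laminin chain gene Lama1 was at 33.6, 329, 123, 11.3 and 51.8 CPM in ICM and 715, 751, 457 and 501 CPM in PrE, without overlap (log2 2.43; adjusted p = 0.222). The type IV collagen gene Col4a2 was at 73.6, 209, 52.5, 3.38 and 40.3 CPM in ICM and 316, 322, 279 and 336 CPM in PrE (log2 2.02; adjusted p = 0.366). The laminin gene Lamb1 was at 606, 1813, 543, 117 and 674 CPM in ICM and 1241, 2123, 1143 and 1394 CPM in PrE, with ICM embryo 10 within the PrE range (log2 0.95; adjusted p = 0.69). In each of the 3 genes embryo 10 was the highest of the ICM group. Without ICM embryo 10, 7 members of this list were called higher in place of 2, in a fit that called 86 of 11236 tested genes higher. The 3 chains are among the PrE markers and were not taken by the rule for named genes in this comparison, apart from Lama1 in the comparison with EPI.

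Uptake of maternal nutrients is a main task of yolk sac endoderm. Of the 16 tested genes of endocytosis and transport 3 rose and 13 lay above 0 (median log2 difference 0.84), beside 0.249% and 47.8% of all tested genes. Dab2, the adaptor that links endocytic receptors to clathrin, was at 23.1, 7.81, 6.53, 2.86 and 7.71 CPM in ICM and 213, 1006, 586 and 515 CPM in PrE. The lowest PrE embryo was far above ICM embryo 2, the highest of the ICM group, and the log2 difference was 5.91 (SE 0.68; adjusted p = 0.00534). Amn, amnionless, which carries the receptor cubilin to the cell surface, was at 0.264, 4.12, 8.34, 3.90 and 18.5 CPM in ICM and 90.9, 181, 477 and 394 CPM in PrE. All PrE embryos exceeded the highest ICM embryo, 24, with a log2 difference of 5.34 (SE 0.93; adjusted p = 0.0275). Slc2a3, the glucose transporter GLUT3, was at 94.8, 96.5, 76.3, 8.06 and 98.3 CPM in ICM and 609, 544, 1251 and 494 CPM in PrE. ICM embryo 23 was far below the others, and the groups did not overlap (3.26, SE 0.61; adjusted p = 0.0401).

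The receptors served by these adaptors were not called. Cubn, cubilin, was at 56.7, 424, 100.4, 0.910 and 216 CPM in ICM and 400.0, 278, 321 and 274 CPM in PrE. It overlapped between the stages, with ICM embryo 10 above every PrE embryo (0.97; adjusted p = 0.828). Lrp2, megalin, was at 0, 1.02, 6.70, 0 and 2.27 CPM in ICM and 0.131, 81.0, 111 and 74.6 CPM in PrE, where PrE embryo 1 lay within the ICM range (log2 5.01; adjusted p = 0.275). Both are PrE markers named for their link to Dab2 and Amn. The yolk sac secretory genes Ttr and Rbp4 had no counts in any ICM, PrE or EPI embryo of this genotype.

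The largest rises included genes with almost no reads in the ICM. Cdh6, a cadherin, had 0 counts in the 5 ICM embryos and was at 13.8, 46.3, 9.58 and 10.4 CPM in PrE, at least 1160-fold higher in PrE when a floor of 3 counts over the ICM group is set. Dapk1, a death-associated kinase, had 1 count in ICM and was at 18.9, 16.9, 9.52 and 4.72 CPM in PrE, a ratio of 2270 with a 95% counting interval of 407 to 89700. Between these groups, reads of both genes came almost wholly from PrE (adjusted p = 0.0364 and 0.0237). Cdh6 counts came from 8 of 14 PrE cells, while 0 of 55 ICM cells had one. At equal depth it was 7 of 14 PrE and 0 of 50 ICM cells, and 0 of 50 allows up to 7.11% by counting error alone (exact 95% binomial), which leaves out the spread between the 5 embryos these cells come from.

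Gas6, the ligand of the TAM receptor tyrosine kinases, was at 0, 0.0299, 0.172, 0.260 and 0.180 CPM in ICM and 15.7, 136, 102 and 66.3 CPM in PrE. PrE embryo 1 was the lowest of its group and still above every ICM embryo (9.33, SE 1.11; adjusted p = 0.00534). Epha2, an ephrin receptor, was at 2.82, 3.35, 0.516, 0 and 0.721 CPM in ICM and 83.9, 48.1, 180.0 and 152 CPM in PrE. No ICM embryo came near the PrE range (6.25, SE 1.05; adjusted p = 0.0237). Htra1, a secreted serine protease, was at 1.85, 10.53, 10.3, 4.29 and 1.98 CPM in ICM and 109, 370.1, 330.0 and 330.4 CPM in PrE, again with PrE embryo 1 lowest (5.58, SE 0.70; adjusted p = 0.00534).

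Stard8, a GTPase-activating protein encoded on the X chromosome, was at 0.528, 0.00995, 0, 0 and 0 CPM in ICM and 33.2, 147, 34.2 and 42.8 CPM in PrE. PrE embryo 2 held more than the other 3, and all 4 were above the ICM (adjusted p = 0.0297). Fhl1, an X-linked LIM-domain gene, was at 0 to 0.299 CPM in ICM and 9.03 to 84.5 CPM in PrE (adjusted p = 0.0418). Nostrin, an F-BAR protein of membrane traffic, was at 0 to 1.44 and 61.7 to 168 CPM (adjusted p = 0.0231). Among 28 tested genes of adhesion and polarity, 1 was called and 17 lay above 0 (median 0.41), beside 0.507% and 47.8% of all tested genes. The called gene, the tight junction gene Cldn6, was at 3.70, 2.52, 0.908, 0 and 2.45 CPM in ICM and 18.9, 153, 231 and 158 CPM in PrE. PrE embryo 1 was the lowest of its group, and the groups did not overlap (log2 6.17; adjusted p = 0.0237).

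The ER list had the largest share of members above 0 of the 24 lists. Of 51 tested genes of ER translocation and the secretory pathway, 48 lay above 0, against 47.8% of all tested genes, 3 rose and none fell, with a median log2 difference of 1.01. Groups did not overlap for 19 of the 51 with PrE higher, beside the 3.68% of all tested genes. Hspa5, the ER chaperone BiP, was at 233, 588, 704, 385 and 332 CPM in ICM and 2389, 1617, 2158 and 2440.2 CPM in PrE. The lowest PrE embryo lay above the highest ICM embryo by more than the spread within either group (2.25, SE 0.37; adjusted p = 0.0237). Hsp90b1, the ER chaperone GRP94, was at 164, 292, 399, 214 and 69.1 CPM in ICM and 1411, 1392, 1452 and 1451 CPM in PrE. Its PrE values were nearly equal in the 4 embryos, at 1426 ± 29.7 CPM (SD, n = 4), against 227 ± 125 CPM (SD, n = 5) in ICM (2.63, SE 0.44; adjusted p = 0.0237). Manf, an ER-resident factor induced when unfolded protein accumulates, was at 69.1, 18.98, 76.1, 123 and 25.5 CPM in ICM and 429, 327, 397 and 386 CPM in PrE, without overlap (2.62, SE 0.51; adjusted p = 0.0487).

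ER chaperone genes share a promoter element, the ER stress response element (ERSE), read by NF-Y and ATF6, and it was searched for after these genes had been seen to rise. The motif was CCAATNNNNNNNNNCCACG on either strand (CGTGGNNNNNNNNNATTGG on the other), in windows from 250 bases before to 50 bases after each gene start in RefSeq on GRCm38.p6. It stood in 39 of 32851 windows (0.119%), or in 37 of 27025 genes (0.137%). Of the 40 ER list genes with a window, 6 held it, namely Calr, Canx, Dnajc3, Hsp90b1, Hspa5 and Pdia6. Of the 25 called higher with a window, Hspa5 and Hsp90b1 held it, and of the 24 called lower none did. Manf, Foxq1 and Srm have no window in the table. The 250 bases upstream of Hspa5 (chr2:34771840-34772089, plus strand) and Hsp90b1 (chr10:86705445-86705694, minus strand) are shown because both genes rose and carry the element, which is in capitals.
Hspa5: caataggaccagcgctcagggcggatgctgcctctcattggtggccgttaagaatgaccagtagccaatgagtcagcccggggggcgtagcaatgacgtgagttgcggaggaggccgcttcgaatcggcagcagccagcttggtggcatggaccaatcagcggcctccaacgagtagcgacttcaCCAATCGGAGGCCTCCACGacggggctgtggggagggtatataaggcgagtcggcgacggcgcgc
Hsp90b1: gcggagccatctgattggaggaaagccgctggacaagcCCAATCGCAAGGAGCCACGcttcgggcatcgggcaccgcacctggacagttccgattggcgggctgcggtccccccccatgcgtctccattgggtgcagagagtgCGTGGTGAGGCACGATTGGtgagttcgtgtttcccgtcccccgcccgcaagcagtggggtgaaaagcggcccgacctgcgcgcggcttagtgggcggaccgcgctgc
The match of Hspa5 begins 65 bases before the gene start, and those of Hsp90b1 begin 212 and 107 bases before it, the second on the reverse strand. Read from CCAAT to CCACG, with the fixed letters in capitals, the elements of the other 4 genes of the list are as follows.
Calr: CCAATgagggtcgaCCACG
Canx: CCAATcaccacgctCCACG
Dnajc3: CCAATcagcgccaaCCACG
Pdia6: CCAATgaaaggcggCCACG
These lie at chr8:84847075-84847093, chr11:50325800-50325818, chr14:118937827-118937845 and chr12:17266491-17266509. A match describes the letters of the window and is not shown to be a bound site. The GATA motif AGATAA and the SOX motif ACAATNG, searched on both strands, stood in 11.2% and 8.09% of windows. By gene the GATA motif was in 2 of 25 that rose (Dab2 and Slc7a7), 3 of 24 that fell and 12.7% of all, and the SOX motif in 0, 3 and 9.15%. Of the 5 PrE factors with a window, Foxa2 and Hnf4a held the GATA motif and Srgn the SOX motif, and of 22 basement membrane genes none held either.

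Among 26 naive pluripotency and epiblast genes, 3 fell and none rose, 19 lay below 0, and the median log2 difference was -1.60. Nanog was at 214, 97.8, 234, 185 and 121 CPM in ICM and 1.70, 3.07, 2.60 and 2.72 CPM in PrE. All PrE embryos lay close together and far below the lowest ICM embryo, 10, with a log2 difference of -6.08 (SE 0.52; adjusted p = 0.000278). Zfp42, known as Rex1, was at 399.9, 215, 437, 417 and 305 CPM in ICM and 112, 27.7, 57.7 and 72.9 CPM in PrE. The groups did not overlap, though PrE cells kept a level well above 0 (-2.39, SE 0.44; adjusted p = 0.0388). Bmp4, a BMP ligand made by the epiblast, was at 134, 277, 343, 592 and 438 CPM in ICM and 21.4, 11.2, 4.44 and 47.7 CPM in PrE, with PrE embryo 5 the highest of its group and still below the ICM (-4.07, SE 0.71; adjusted p = 0.0287).

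Other core factors were not called. Pou5f1, which encodes OCT4, was at 369, 226, 483, 534 and 208 CPM in ICM and 566, 553, 522 and 474 CPM in PrE, with a log2 difference of 0.54 (adjusted p = 0.712). Sox2 was at 24.6, 3.72, 8.11, 5.98 and 10.3 CPM in ICM and 2.97, 0.0961, 3.13 and 2.45 CPM in PrE (log2 -2.28; adjusted p = 0.673). Klf4 was at 25.6, 9.58, 28.5, 5.33 and 11.4 CPM in ICM and 55.0, 29.9, 21.4 and 58.0 CPM in PrE (log2 1.34; adjusted p = 0.641). None of the 3 passed the test, and only Sox2 had groups that did not overlap. They are markers of the ICM and EPI label and were named as such. In DESeq2, which called more genes throughout, 8 members of the list were called lower, beside 363 of all 12040 tested genes.

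Many of the largest falls ended at or near 0 in PrE. Ap4s1, a subunit of an adaptor complex, was at 104, 1.82, 18.05, 47.7 and 4.76 CPM in ICM and had 0 counts in PrE, at least 728-fold lower by the floor of 3 counts over the PrE group (adjusted p = 0.0418). Its ICM level was uneven, and it overlaps Strn3 on the other strand, whose reads cannot be told apart because no strand setting is given. The same holds for Slc24a5 (with Myef2), Ly6g6e (Ly6g6d), Gas6 (Tmem255b), Htra1 and Oat (a long Fgfr2 model) and Dnmt3b (Dnmt3bos). Oas1e, of the oligoadenylate synthetase family, was at 50.6, 25.1, 42.4, 131 and 88.4 CPM in ICM and had 2 counts in PrE, a ratio of 3350 with a 95% counting interval of 928 to 27700 (adjusted p = 0.00534). Ddit4l, an inhibitor of mTORC1 signalling, had 3405 counts in ICM and 2 in PrE, a ratio of 1230 (95% counting interval 341 to 10200; adjusted p = 0.0237). All 5 ICM embryos held reads of these genes.

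Spic, an ETS-family factor, was at 150.2, 47.6, 181, 223 and 50.5 CPM in ICM and 0.305, 0.673, 0.0884 and 0.0295 CPM in PrE. All ICM embryos were far above all PrE embryos (-9.004, SE 1.12; adjusted p = 0.00534). Slc24a5, a cation exchanger, was at 114, 91.6, 270.4, 303 and 51.1 CPM in ICM and 1.18, 0.913, 0.300 and 0.0886 CPM in PrE, without overlap (-8.12, SE 1.01; adjusted p = 0.00534). Ptges, which makes prostaglandin E2, was at 1.496, 3.10, 30.5, 49.5 and 32.5 CPM in ICM and 0, 0.0480, 0.0353 and 0.0148 CPM in PrE (adjusted p = 0.0318). The remaining large falls were Cst7, a cystatin, at 3.23 to 61.8 CPM in ICM and 1 count in PrE, Stambpl1, a deubiquitinase, at 15.9 to 85.1 and 0.0295 to 0.144 CPM, and Ly6g6e, a surface protein gene, at 12.9 to 170.3 and 0.0443 to 0.144 CPM. Gm38100, Gm12790 and Gm5096 are protein-coding in GENCODE without a named function, and fell from 17.9 to 59.4, 16.5 to 112 and 15.5 to 30.8 CPM to at most 0.528 CPM.

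Bhmt, the betaine-homocysteine methyltransferase of methionine synthesis, was at 1320.1, 656, 1128, 1937 and 1185 CPM in ICM and 37.9, 36.9, 27.0 and 22.5 CPM in PrE. It had, with Nanog, the smallest p of all genes (-5.32, SE 0.43; adjusted p = 0.000278), and was singled out after its values were seen. Malat1, a nuclear long noncoding RNA, was at 3119.7, 428, 888, 803 and 4918 CPM in ICM and 201, 114, 32.6 and 83.1 CPM in PrE. ICM embryos 2 and 24 were the highest, and the groups did not overlap (-4.22, SE 0.82; adjusted p = 0.0473). The antisense RNA 1600010M07Rik was at 3.35 to 54.9 CPM in ICM and 0 to 0.0873 CPM in PrE (adjusted p = 0.0297), but it overlaps 8 annotated genes and is uncertain without strand. No long noncoding RNA was called higher in PrE.

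**Figure D3:**
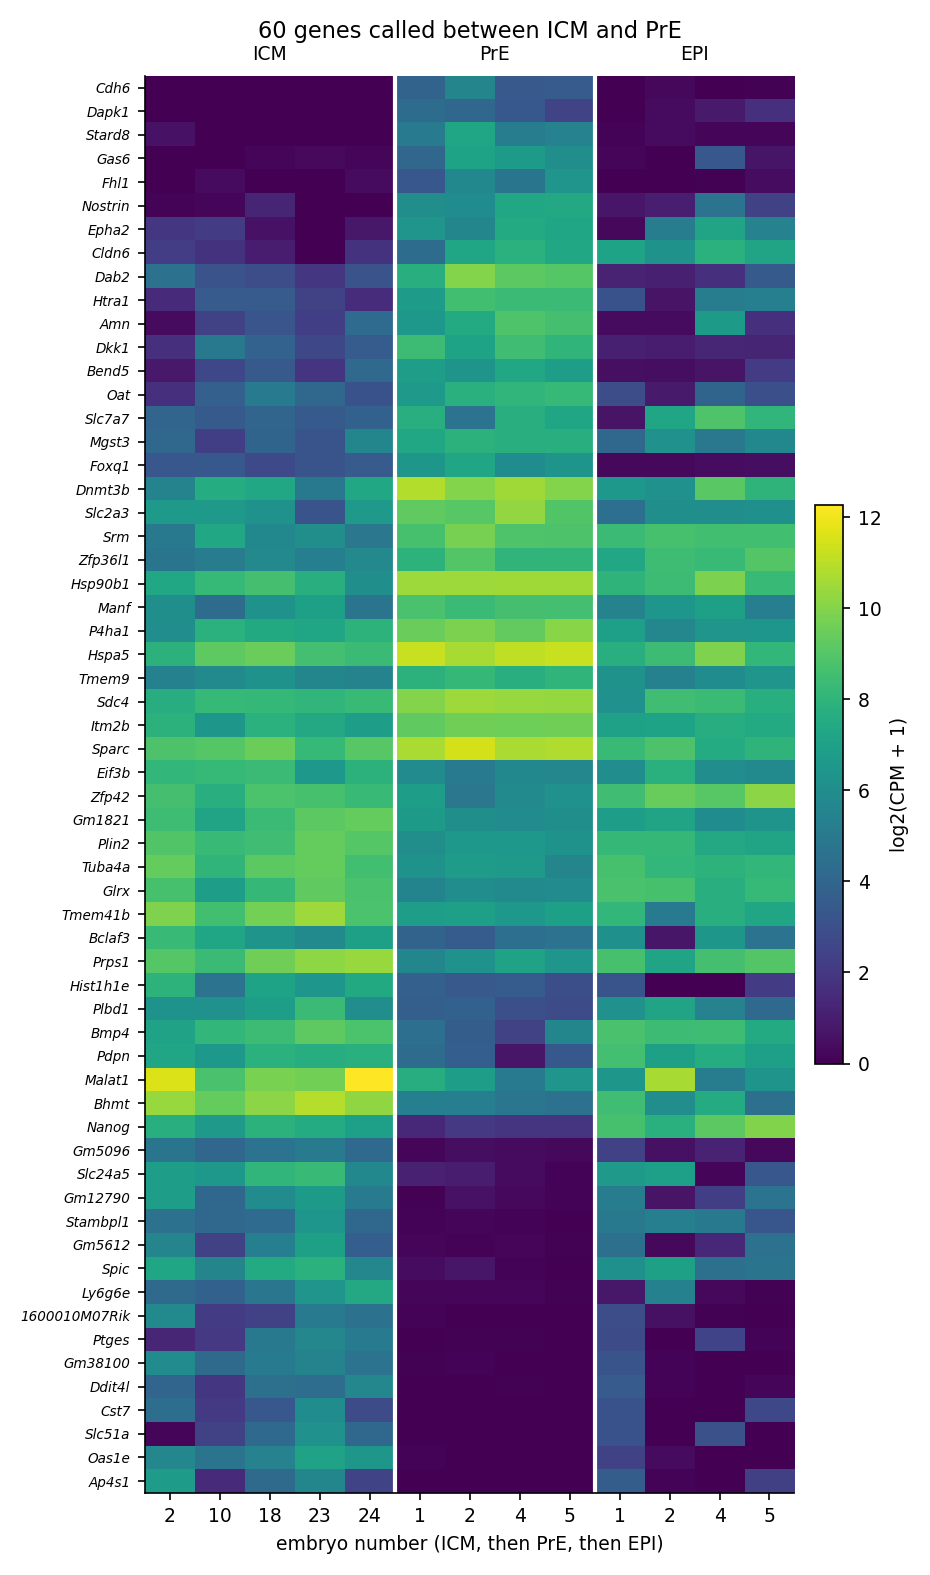
Heat map of 60 of the 61 genes called between Stat3-null ICM and PrE, with genes in rows ordered by fold change, embryos in columns and colour for log2(CPM + 1). The 4 PrE columns differ from the 5 ICM columns in every row, and the 4 EPI columns, which were not part of the test, lie near the one or the other depending on the gene.

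Genes of FGF signalling are known to drive this fate choice, and none of 23 tested passed in edgeR (18 above 0, median log2 difference 1.0). At an unadjusted p under 0.05 there were 6 higher and 1 lower of 23, against 4.15% and 5.31% of all tested genes, and DESeq2 called 2 higher and 1 lower. The ligand Fgf4 was at 1.41, 33.9, 6.62, 5.98 and 8.69 CPM in ICM and 0.655, 0.384, 0.194 and 0.310 CPM in PrE. Groups did not overlap, but the ICM values were spread widely (-4.90, SE 1.482; adjusted p = 0.193). Egr1, an immediate early gene induced by ERK, was at 66.0, 137, 32.3, 65.7 and 1.41 CPM in ICM and 319.7, 1004, 509 and 1058 CPM in PrE, also without overlap (3.56, SE 0.87; adjusted p = 0.107). Of 25 immediate early and heat shock genes none was called in edgeR (7 at an unadjusted p under 0.05, against 9.46% of all tested genes) and 4 higher in DESeq2, with 17 above 0 and a median of 1.40, which ranged from 0.23 without PrE embryo 2 to 1.89 with PrE embryos 1 and 2 alone. The heat shock gene Hspb1 was at 3.26, 15.05, 46.9, 62.8 and 68.9 CPM in ICM and 163, 236, 683 and 456 CPM in PrE (adjusted p = 0.086).

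In the Wnt pathway 1 of 22 tested genes passed and 12 lay above 0 (median 0.50), beside 0.507% and 47.8% of all tested genes. Dkk1, a secreted Wnt inhibitor made by extraembryonic endoderm, was at 2.20, 29.6, 13.5, 5.33 and 10.8 CPM in ICM and 340.5, 139, 359 and 258 CPM in PrE. The lowest PrE embryo, 2, lay well above the highest ICM embryo, 10 (4.45, SE 0.70; adjusted p = 0.0182). Bmp4, described above, was the 1 call among 24 genes of the Nodal and BMP pathways (median 0.05). None of 29 genes of the LIF, JAK and STAT pathway passed in edgeR (17 above 0, median 0.20; 4 higher and 2 lower at an unadjusted p under 0.05, against 4.15% and 5.31% of all tested genes), and DESeq2 called 1 in each direction. Its 2 smallest p values belonged to Junb, at 36.6, 20.7, 6.96, 17.6 and 3.86 CPM in ICM and 50.3, 190.4, 147 and 77.1 CPM in PrE (adjusted p = 0.115), and Icam1, at 0.216 to 27.2 and 0 to 0.0707 CPM (adjusted p = 0.141).

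DNA methylation genes gave a single call. Dnmt3b, a de novo DNA methyltransferase, was at 44.1, 191, 163, 29.8 and 164 CPM in ICM and 1839.8, 1019, 1452 and 1025 CPM in PrE. Its lowest PrE embryo held more than 5 times the highest ICM embryo, with a log2 difference of 3.48 (SE 0.56; adjusted p = 0.0231). It was the 1 gene called among 22 of the methylation and imprint-protection list (12 above 0, median 0.09) and among the 7 tested formative and primed genes, whose median of 2.48 rests on few genes and is below 0 in 8 of the 19 alternative fits. Dnmt3a, its partner enzyme, was at 9.07, 123, 147, 12.5 and 156 CPM in ICM and 851, 733, 966 and 877 CPM in PrE, without overlap, and missed the threshold (log2 3.24; adjusted p = 0.0925); it was named after its values were seen. The title of the series names imprinted genes, and none of the 41 tested passed in edgeR (22 above 0, median 0.21; 2 higher and 3 lower at an unadjusted p under 0.05, near the 4.15% and 5.31% of all tested genes), while DESeq2 called 1 higher and 3 lower. Besides Xist, Slc38a4, an amino acid transporter gene expressed from the paternal allele, had the smallest p, at 132, 139.9, 83.7, 277 and 74.3 CPM in ICM and 34.7, 44.1, 10.4 and 23.6 CPM in PrE, with no overlap (log2 -2.33; adjusted p = 0.102).

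Metabolic lists held 1 called gene. Of 21 genes of glycolysis and glucose transport 18 lay above 0 (median 0.77), and Slc2a3 was the call. At an unadjusted p under 0.05 in edgeR, 6 of the 21 were higher, against 4.15% of all tested genes, and none was lower. The cholesterol and lipid list had 4 of 32 higher and none lower at that threshold. DESeq2 called 3 and 1 members of these lists higher. Of 32 cholesterol and lipid genes 27 lay above 0 (median 0.50), with Cyp51, a sterol demethylase, at 31.9, 22.5, 6.28, 0.650 and 0.685 CPM in ICM and 125, 166, 55.4 and 81.1 CPM in PrE and no call (adjusted p = 0.27). TCA cycle genes (29 tested, median 0.23), nuclear oxidative phosphorylation subunits (76 tested, 23 above 0, median -0.21) and the 13 mitochondrial mRNAs (4 above 0, median -0.23) had no call. In limma-trend on embryo means, which weights cells equally, the median of all tested genes was 0.54, and the last 2 medians turned positive, to 0.35 and 0.21. At an unadjusted p under 0.05 Sdhd, a complex II subunit in both the TCA and the nuclear subunit lists, was higher. Idh3g and Psat1 of the TCA list were lower, against 9.46% of all tested genes in both directions. DESeq2 called 1 member of the TCA list lower. Psat1, whose enzyme makes phosphoserine and α-ketoglutarate, was at 270.5, 296, 320.1, 240.5 and 386 CPM in ICM and 99.5, 99.3, 152 and 186 CPM in PrE (adjusted p = 0.164), all PrE embryos below all ICM embryos.

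No gene passed among 50 S phase and G2/M genes (23 above 0, median -0.13), 20 p53 targets (6 above 0, median -0.21), 79 cytoplasmic ribosomal protein genes (37 above 0, median -0.01), 11 trophectoderm genes (6 above 0, median 0.29) or 10 X and Y dosage genes. The medians of the first 3 lists turned positive in limma-trend, to 1.0, 0.42 and 0.33. At an unadjusted p under 0.05 the trophectoderm list had 2 higher and 3 lower of 11, against 4.15% and 5.31% of all tested genes. Higher and lower were 1 and 3 of 50 S phase and G2/M genes and 2 and 1 of 20 p53 targets. They were 0 and 1 of 79 ribosomal protein genes and 1 and 1 of 10 X and Y dosage genes. DESeq2 called 2 trophectoderm genes lower, and 0 or 1 in each direction in the other lists. Gata3, a trophectoderm factor, was at 0.792, 5.31, 10.8, 16.4 and 31.6 CPM in ICM and 0.0873, 0.0480, 0 and 0.0443 CPM in PrE (log2 -8.14; adjusted p = 0.088). The ICM values exceeded all PrE values. Embryo sex was read from Y-linked genes, Ddx3y among them, and Xist, so these genes cannot check it. Ddx3y was at 0.440, 3.80, 0.532, 11.2 and 0.144 CPM in ICM and 31.0, 67.6, 64.6 and 119.7 CPM in PrE. Xist was at 388, 354, 181, 2.21 and 824 CPM in ICM and 0, 0, 2.42 and 0 CPM in PrE. Neither gene was called (adjusted p = 0.138 and 0.088). Of the 61 called genes, 4 are on the X chromosome, namely Stard8 and Fhl1 among those that rose and Prps1 and Bclaf3 among those that fell. With embryo sex as a term, which rests on the single male ICM embryo, Prps1 stayed called (log2 -3.67; adjusted p = 0.0433), and Stard8, Fhl1 and Bclaf3 did not (adjusted p = 0.218, 0.217 and 0.353).

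**Figure D4:**
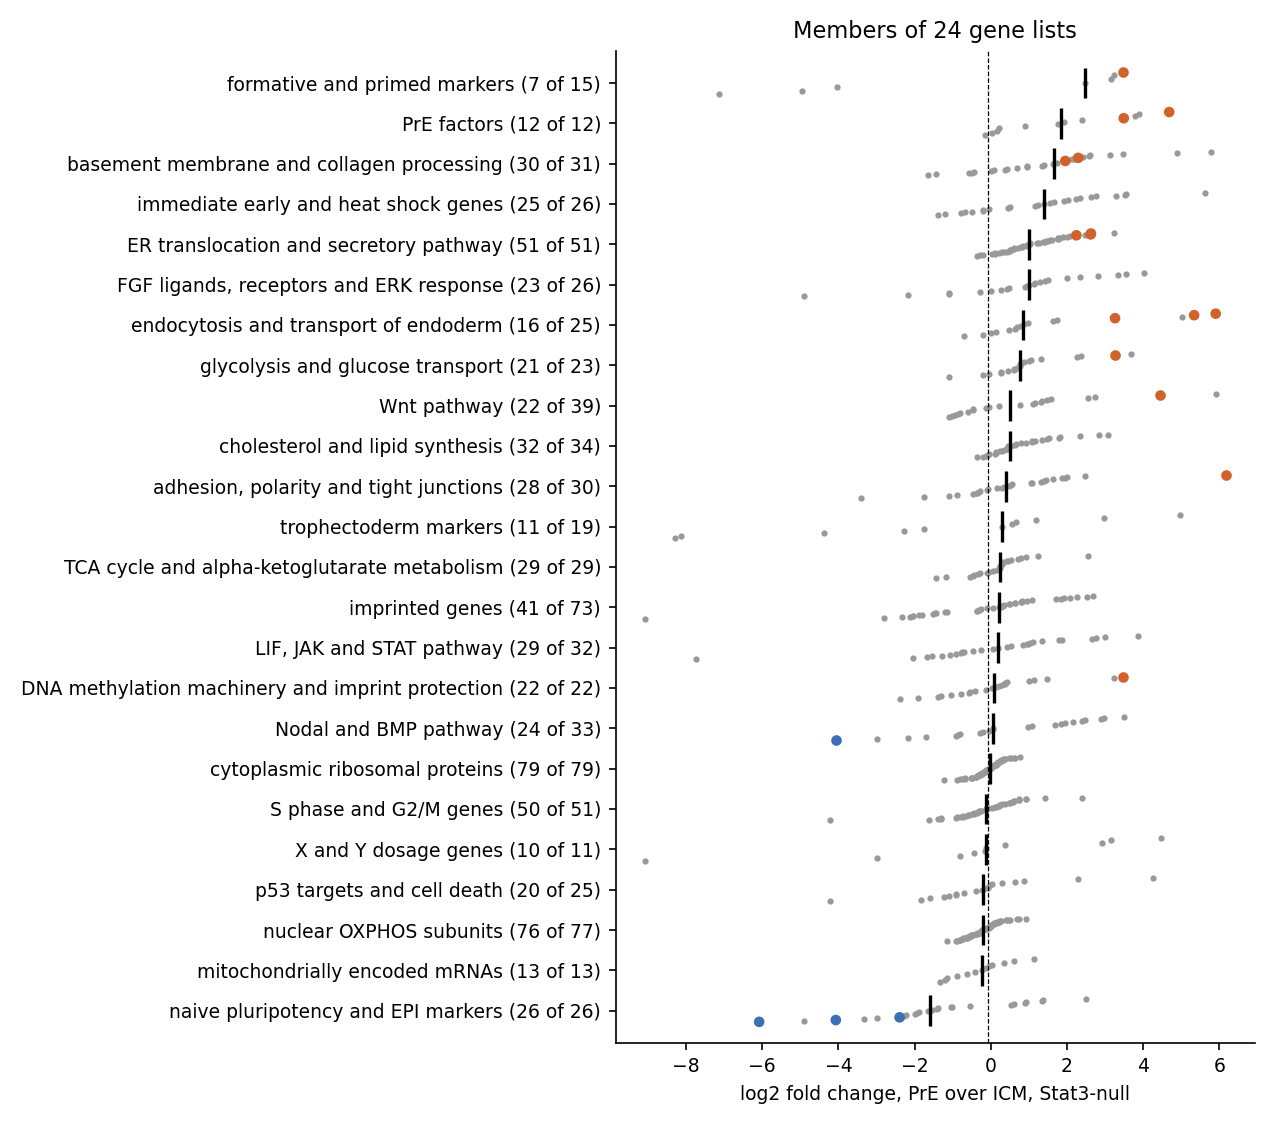
Log2 fold change of PrE over ICM for each tested member of the 24 gene lists (grey, not called; orange, called higher; blue, called lower), with the list median as a black bar and the median of all tested genes as a dashed line. Tested and listed members are given beside each name. The ER list lies to the right of the dashed line in nearly all members.

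Over 19 alternative fits the median kept its sign in all for the lists of PrE factors, basement membrane, endocytosis, pluripotency, FGF, adhesion, ER, glycolysis, TCA cycle and immediate early genes, and in 11 to 18 for each of the other 14 lists. These signs are set against 0, while the median of all tested genes itself ran from -0.43 without the filter to 1.11 with the sex term. Without ICM embryo 10, 6 pluripotency genes were called lower and 8 ER genes higher, in place of 3 and 3. That fit called 86 of 11236 tested genes higher and 83 lower, beside 30 and 31 of 12040 in the main fit. DESeq2 called 12 ER genes and 5 PrE factors higher, beside 194 higher and 363 lower of all 12040.

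The remaining called genes had other functions. Those that rose were Srm, spermidine synthase (28.4 to 155 CPM in ICM and 414 to 864 CPM in PrE), Oat, ornithine aminotransferase (2.11 to 33.7 and 94.2 to 297 CPM), the amino acid transporter Slc7a7 (9.99 to 14.96 and 24.5 to 209.9 CPM) and the glutathione transferase Mgst3 (3.80 to 47.8 and 162 to 238 CPM). Zfp36l1, which promotes decay of AU-rich mRNAs, and the syndecan Sdc4 rose from 26.7 to 54.4 and 199.8 to 312 CPM to 246 to 510.5 and 999.8 to 1397 CPM. Bend5, Itm2b and Tmem9 also rose. Among those that fell, Plin2, which coats lipid droplets, was at 489, 316, 361, 658 and 518 CPM in ICM and 65.5, 92.6, 91.9 and 75.9 CPM in PrE (log2 -2.52; adjusted p = 0.00711). Prps1, of nucleotide synthesis (332 to 1317 and 48.6 to 133 CPM), the redox protein Glrx (116 to 619 and 44.7 to 63.5 CPM), the ER scramblase Tmem41b (372 to 1412 and 92.2 to 123 CPM) and the tubulin Tuba4a (258 to 661 and 46.4 to 106 CPM) fell too. Pdpn, Plbd1, Bclaf3, Eif3b, Slc51a and the linker histone Hist1h1e complete the protein-coding falls, and the pseudogenes Gm5612 and Gm1821 are uncertain because reads of their parent genes may be counted there. These genes were named for completeness and not by the rule for named genes.

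PrE and EPI cells of the same 4 embryos share stage, sex and title letters, and the median total per cell of the EPI embryos, 10351004 to 11201876, lay within the range of the PrE embryos. EPI embryos 1, 2, 4 and 5 gave only 2, 1, 3 and 3 cells, and 2 of these 9 cells were flagged as low-quality. The EPI sums held 10351004 to 28692221 counts, against 22036350 to 58367613 in PrE. Between PrE and EPI, 123 of 10698 genes (1.15%) were higher in PrE and 54 (0.505%) lower, and with the embryo as a replicate block 47 of 13317 (0.353%) and 19 (0.143%). This comparison shares the PrE sums with the step from ICM, so the 2 are set side by side without a test of their overlap. The 5 genes with the smallest p among those higher in PrE were Dkk1, Lama1, Flrt3, Gdpd5 and Timd2. Lama1 was at 4.34, 5.81, 2.504 and 2.14 CPM in EPI (embryos 1, 2, 4 and 5), below every PrE embryo (log2 7.36, SE 0.44; adjusted p = 7.36e-05, and 0.002 with the block). Flrt3, an adhesion protein, was at 1.78, 0.667, 1.31 and 2.32 CPM in EPI, 303, 448, 336 and 593 CPM in PrE and 15.3, 194, 32.8, 6.24 and 223 CPM in ICM. Timd2, a ferritin receptor, was at 1.35, 1.24, 1.502 and 0.646 CPM in EPI, 324, 177, 384 and 227 CPM in PrE and 56.5, 112, 493, 207 and 377 CPM in ICM. Flrt3 lay below the PrE range in both ICM and EPI, whereas for Timd2 the PrE and ICM ranges overlapped and EPI lay below both (adjusted p = 7.36e-05 and 7.36e-05 for PrE against EPI, 0.00559 and 0.00286 with the block).

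Lower in PrE were Fgf4, Nanog, Dppa5a, Lrrc2 and Eras. Fgf4 was at 119, 155, 79.0 and 125 CPM in EPI against 0.194 to 0.655 CPM in PrE (log2 -8.31, SE 0.58; adjusted p = 0.000162, and 0.00559 with the block). Its receptor gene Fgfr2 ran the other way, at 0.304, 0.381, 0.0939 and 0.0587 CPM in EPI and 97.6, 80.1, 80.9 and 14.9 CPM in PrE (adjusted p = 0.00365, and 0.0215 with the block), while ICM embryos held 3.52 to 179 CPM. Nanog was at 407, 217, 569.8 and 989 CPM in EPI (adjusted p = 0.000185, and 0.00898 with the block). Eras, a RAS-like gene of pluripotent cells on the X chromosome, was at 51.1, 51.6, 35.2 and 68.7 CPM in EPI and 0.218, 0.0480, 0.106 and 0.118 CPM in PrE, and was too low in ICM, at 0 to 17.8 CPM, to be tested there. Igf2, a paternally expressed growth factor, was the 1 imprinted gene of 36 called, at 25.5, 9.90, 13.5 and 5.39 CPM in PrE and 0.0868, 0.0953, 0.0313 and 0.0294 CPM in EPI (adjusted p = 0.0363), but not with the block (0.167). Its ICM values were 3.52, 1.04, 3.93, 1.43 and 0.541 CPM, all below PrE (adjusted p = 0.469). Fgfr2 and Igf2 were named after their values were seen.

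Some genes that rose from ICM to PrE were low in EPI and others were not. Foxq1, Dkk1 and Dab2 were at 0.191 to 0.352, 0.953 to 1.53 and 1.14 to 10.2 CPM in EPI, far below PrE (adjusted p = 0.000162, 7.36e-05 and 0.00496). In contrast Zfp36l1, Srm and Cldn6 were at 159.7, 352, 320.4 and 498, 333, 414, 373 and 372 and 138, 75.9, 224 and 140.2 CPM in EPI, overlapping the PrE range (log2 -0.07, 0.55 and -0.06; adjusted p = 0.995, 0.512 and 0.996). A p above the threshold does not show that PrE and EPI were equal. Of the ER chaperones, Hspa5 was at 208, 338, 948 and 277 CPM and Hsp90b1 at 254, 336, 926 and 315 CPM in EPI, all below PrE, with EPI embryo 4 the highest for both. Hspa5 passed the threshold without the block and Hsp90b1 did not (adjusted p = 0.0443 and 0.0788), and with the block neither did (0.102 and 0.124). Among the falls, Bhmt was at 364, 62.9, 183 and 22.2 CPM in EPI, below every ICM embryo and overlapping PrE (adjusted p = 0.212).

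The step was also measured in wild-type embryos, which share no sample with the Stat3-null ones. By Y-linked and Xist counts 2 of 5 wild-type ICM embryos and 2 of 3 PrE embryos were female. Letters were D to H in ICM and A or C in PrE, and wild-type PrE embryo 3 gave 1 cell. Sex and PrE letter thus differed between the genotypes as well. In both genotypes stage, letter and depth per cell changed with lineage, and these cannot be told apart in shared signs. In the wild type 32 of 13190 genes (0.243%) were called higher in PrE and 14 (0.106%) lower. Of the 61 genes called in Stat3-null embryos, 58 were tested in the wild type and 56 had the same sign, of which 4 were called there (3 higher and 1 lower), beside 65.7% of the 11543 genes tested in both. A fit of the 4 groups for the difference between the genotypes called 0 of 15614 genes (0%) in edgeR, with 1436 at an unadjusted p under 0.05, and 534 genes in DESeq2. The wild-type log2 difference of Nanog was -3.29 beside -6.08 (difference -2.77, SE 0.94; adjusted p = 0.407). For Dab2 it was 3.35 beside 5.91 (adjusted p of the difference 0.551), and for Hspa5 0.88 beside 2.25 (0.551). Dnmt3b gave 4.62 beside 3.48 and was called in both genotypes (wild-type adjusted p = 0.0124), as were Srm and Mgst3 (0.00855 and 0.046) and, lower in both, the pseudogene Gm1821 (0.0152). Sox17 was called in the wild type (7.34; adjusted p = 0.00855) and not in Stat3-null embryos, and its difference between them did not pass either (-4.91; adjusted p = 0.307). Cldn6 and Ddit4l were the 2 genes with opposite signs, at -0.31 and 0.64 in the wild type (0.354 and 0.307 for the difference).

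Single cells were described for 4 genes, with no test. In CPM per cell, Nanog ran from 0 to 782 in ICM cells (median 72.0, n = 55) and from 1.56 to 5.29 in PrE cells (median 2.60, n = 14), and 45 of 55 ICM cells lay above every PrE cell. Gata6 ran from 0 to 255 in ICM cells and from 0.108 to 226 in PrE cells, with medians of 69.6 and 89.2. The 2 distributions of Gata6 thus overlapped almost wholly. Dab2 had a median of 0 in ICM cells (28 of 55 without a count, highest 87.4) and of 501 in PrE cells, of which 12 of 14 lay above the highest ICM cell. Sox17 ran from 0 to 702 (median 17.3) in ICM cells, of which 39 of 55 lay below every PrE cell, and reached 983 (median 441) in PrE cells.

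After thinning to 500000 counts per cell, 50 ICM and 14 PrE cells could be compared, 5 shallower ICM cells being left out. Nanog and Gata6 counts occurred together in 41 of 50 ICM cells and in 11 of 14 PrE cells. Foxa2 was detected in 2 of 50 ICM cells and 14 of 14 PrE cells, and Sox7 in 16 of 50 and 14 of 14. Spic was detected in 39 of 50 ICM cells and 1 of 14 PrE cells. Reads of lineage genes also occurred at a low level in the other lineage, since with all counts Nanog was found in 14 of 14 PrE cells (at 1.56 to 5.29 CPM) and Dab2 in 9 of 9 EPI cells. At equal depth these were 12 of 14 and 4 of 9. Whether such reads come from the cell or from another library was not tested.

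**Figure D5:**
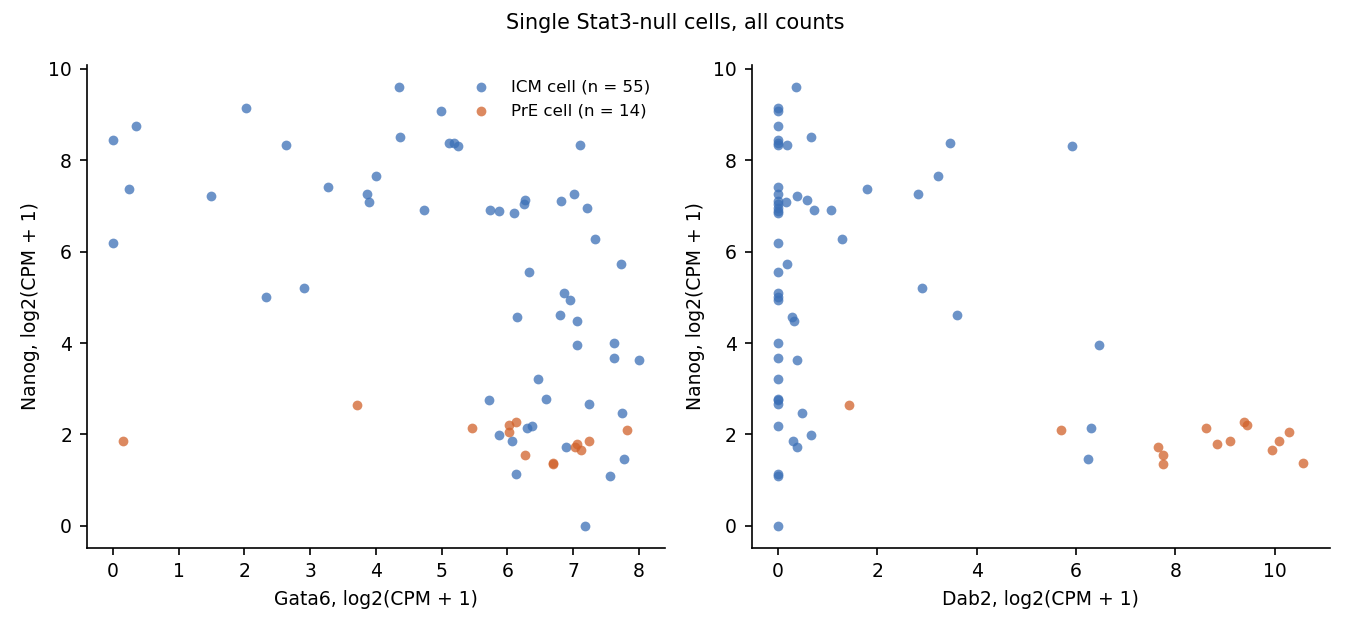
Each point is 1 Stat3-null cell (55 ICM, blue; 14 PrE, orange), with Nanog on the y axis and Gata6 (left) or Dab2 (right) on the x axis, all as log2(CPM + 1). PrE cells sit at the bottom in both panels, at Gata6 levels shared with ICM cells on the left and on the right 12 of 14 lie at Dab2 levels above every ICM cell.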

How the data were processed

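Cells were sequenced one by one, and the authors' deposited table holds whole-number raw counts per gene and cell, made with STAR and HTSeq on mm10 per the submitters' processing notes. Neither their versions nor a strand setting or library method is named in the sources used here. Of 49671 rows, 49412 matched GENCODE vM21 by identifier and 259 others held 0.0101% of counts.

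Counts were summed per embryo, the first number in each title being read as the embryo. Stat3-null ICM (5 sums) and PrE (4) were compared in R 4.3.3 with edgeR 4.0.16 (TMM, filterByExpr, quasi-likelihood F-test) with Benjamini-Hochberg adjustment over all genes tested and a threshold of 0.05. P-values measure the spread between these embryos. SE values are the log2 fold divided by the root of F and restate the test. Levels are CPM scaled by TMM over all 24 sums, and values of single cells are plain CPM. PrE against EPI, the wild-type step and the difference between genotypes were fitted in the same way on their own groups. PrE and EPI numbers pair by embryo, and deviations of same-numbered sums correlated at 0.0532 to 0.0996 over genes. Intervals are exact (Clopper-Pearson) and cover counting error only. The floor for a gene at 0 was 3 counts over the group.

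Alternatives were RLE size factors, no filter, DESeq2 1.42.0, limma-trend 3.58.1, leaving out each embryo, an embryo sex term, removal of low-quality cells, thinning to 500000 counts, letter A or B alone, all 6 groups in 1 fit and, for PrE against EPI, the embryo as a block. The genes named were the 12 protein-coding genes with the largest called rise and fall at 10 CPM or more, up to 5 called members of each list or else the 2 with the smallest p, 2 long noncoding RNAs in each direction and 5 genes in each direction against EPI. Members, lists and tests were chosen with earlier results of these data known. Of the called genes, 1 is counted but not reported here by name. The scripts were tested on simulated data.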

Additional observations from a re-analysis of the deposited data

Results flagged for a closer look

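Among 76 groups of embryo values of named genes that were tested for a single distant embryo (Dixon's test), 15 were flagged, where chance flags about 1 in 20. The embryo set apart was high or low as follows, with the nearest other embryo in brackets, all in CPM. PrE embryo 2 was high for Cdh6 at 46.3 (13.8), Sparc at 2849 (1794), Stard8 at 147 (42.8) and Stat3 at 21.4 (9.90). PrE embryo 4 was high for Slc2a3 at 1251 (609), and PrE embryo 1 was low for Htra1 at 109 (330.0).

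In the ICM, embryo 2 was high for Dab2 at 23.1 (7.81) and Stard8 at 0.528 (0.00995), embryo 18 for Nostrin at 1.44 (0.179), and embryo 23 for Stambpl1 at 85.1 (22.6), while embryo 23 was low for Slc2a3 at 8.06 (76.3). The Dab2 value of ICM embryo 2 came mostly from its cell 3, at 59.7 CPM, with its other cells at 0 to 6.52 CPM. The other 4 flags rest on 1 or 2 counts, namely Cst7 in PrE embryo 5 at 0.0148, Ddit4l in PrE embryo 4 at 0.0353, Oas1e in PrE embryo 1 at 0.0873 and Dapk1 in ICM embryo 18 at 0.0157.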

How the results depend on the processing

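No called gene changed sign in any alternative in which it was tested. Beside the 30 higher and 31 lower genes of the main comparison, omitting the filter on low counts gave 52 and 56, DESeq2 194 and 363, limma-trend 554 and 76, thinning to 500000 counts 54 and 82, the sex term 7 higher and 22 lower, letter A alone 3 and 5, letter B alone 0 and 0, and all 6 groups in 1 fit 45 and 65. Leaving out 1 embryo gave 6 to 86 higher and 7 to 83 lower genes. The highest counts came without ICM embryo 10 and the lowest without single PrE embryos. RLE size factors (32 and 35) and removal of the 7 low-quality ICM cells (24 and 29) moved the counts by less than 1.5 times.

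For PrE against EPI, where 123 genes were higher and 54 lower, the replicate block by embryo gave 47 and 19, DESeq2 360 and 271, and leaving out 1 embryo 54 to 66 and 17 to 25. For the difference between genotypes, 0 in each direction in edgeR, omitting the filter gave 4 lower genes, DESeq2 217 higher and 317 lower, and leaving out 1 embryo 0 to 1 lower. The causes were not tested. No paired analysis of ICM against PrE was possible because they come from different embryos.

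The comparison rests on 4 and 5 embryos, of which PrE embryos 1 and 2 gave 2 cells each. Lineage, stage, title letter and most of the sex difference cannot be told apart.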
